A study of Homo sapiens with 4 samples.

Results

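The 10 genes described here encode the chaperonin of the mitochondrial matrix (HSPD1, HSPE1) and the machines that remove damaged proteins from mitochondria (LONP1, CLPP, CLPX, CLPB, AFG3L2, SPG7, YME1L1 and HTRA2). They were chosen by symbol, and each of the 10 symbols had 1 row among the 16057 genes of the deposited table. The cells were MM.1S, an established human multiple myeloma line, that is, a line of malignant plasma cells. For 26 h they received either the solvent DMSO or JG342 at 350 nM, a compound that inhibits HSP70 chaperones allosterically. Each treatment had 2 biological replicates, and both shared the same cell line, medium and collection time, so 1 cell line and 1 dose at 1 time are described.

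Levels are in TPM, a share of the transcripts of a library that is corrected for transcript length, so levels can be compared between genes. Because each library pools many cells, fewer cells carrying a transcript and less of it per cell cannot be told apart. Because TPM is a share, a change in abundant transcripts also shifts the values of the others. Of the 9 plasma cell markers listed, every one was at 22.04 TPM or more in each library, with SDC1 at 243 to 379 TPM and MZB1 at 1442 to 1566 TPM. The B-cell gene PAX5 was at 0.26 TPM or less. Of the myeloid genes, LYZ lay between 36.96 and 46.2 TPM, while CD14 and ITGAM were at 0.99 and 0.17 TPM or less. The approximate depth, derived from the steps between low values, was between 8610000 and 9580000 reads per library. By the same estimate the genes described here rested on between 194 reads (CLPB, JG342 replicate 1) and 12600 reads (HSPD1, JG342 replicate 2).

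Proteins enter mitochondria unfolded. In the matrix, the mitochondrial HSP70 (HSPA9) receives them and passes some to the HSP60 chaperonin, a barrel of HSPD1 subunits closed by a lid of HSPE1, also called HSP10. Proteins that fail to fold are degraded by ATP-driven proteases: LONP1 and the CLPX-CLPP complex in the matrix, and the AFG3L2-SPG7 and YME1L1 proteases in the inner membrane. CLPB keeps proteins soluble in the intermembrane space, where HTRA2 is a serine protease. Transcription of several of these genes is known to respond when protein folding in mitochondria is disturbed.

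The sequences below are those of the 3 genes the results turn on, HSPD1, HSPE1 and LONP1, taken from RefSeq promoter windows (GRCh38.p14), each with 250 bases before a gene start and 50 after it. HSPD1 and HSPE1 lie head to head on chromosome 2, with 104 bases between the listed starts, so that stretch serves both genes. Capitals mark a match to the NRF1 type element (found as its reverse complement; NRF1 is a transcription factor of many mitochondrial genes) and an E-box (CACGTG).
Between the HSPD1 and HSPE1 starts, chr2:197500275-197500378, plus strand: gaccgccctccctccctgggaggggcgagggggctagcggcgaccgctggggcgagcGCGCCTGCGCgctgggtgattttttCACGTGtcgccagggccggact
The next stretch lies 189 bases downstream of that HSPD1 start and 294 bases upstream of the HSPE1 start. It is upstream of a second listed HSPD1 start, at 197499840, and comes from the window of that second start. It is shown because it holds a run of heat shock element letters, TTCNNGAA and GAANNTTC, which overlap each other here over 18 bases in capitals.
Heat shock element run, chr2:197500062-197500090, minus strand: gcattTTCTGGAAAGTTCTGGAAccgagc
LONP1 was the gene with the largest change of the 10. It has 2 listed starts, and the stretch before the start at 5720146 is shown, with E-boxes in capitals. Its NRF1 type element lies in the window of the other start, at 5720452, which is not shown.
LONP1 before its start, chr19:5720147-5720396, minus strand: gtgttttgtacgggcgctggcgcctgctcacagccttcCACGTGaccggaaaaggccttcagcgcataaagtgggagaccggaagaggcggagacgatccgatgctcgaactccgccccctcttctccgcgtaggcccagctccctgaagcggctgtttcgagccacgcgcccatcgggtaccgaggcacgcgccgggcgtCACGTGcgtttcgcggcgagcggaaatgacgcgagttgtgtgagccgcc

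**Figure D1:**
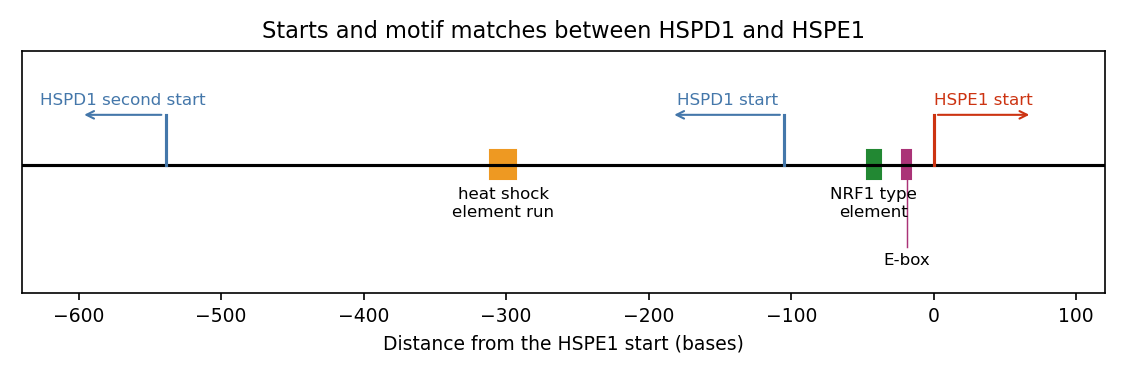
Positions of the listed starts (arrows) and motif matches (boxes) around HSPD1 and HSPE1, as distance in bases from the HSPE1 start. The NRF1 type element and the E-box lie between the 2 nearest starts, which have 104 bases between them, and the heat shock element run lies 294 bases before the HSPE1 start.

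Promoter windows were found for 8 of the 10 genes; CLPP and YME1L1 had none. Both strands of all 35116 RefSeq windows of this length were searched for the same letters. The NRF1 type element was in a window of 5 of the 8 genes, which were HSPD1, HSPE1, LONP1, CLPX and SPG7, against 5.78% of all windows. HSPD1 and HSPE1 share a single match, and LONP1, SPG7, HSPD1 and HTRA2 have 2 windows each, so these counts are a description. The E-box, which was searched after the sequences had been read, was in windows of 3 of the 8 (HSPD1, HSPE1 and LONP1), against 7.26% of all. HSPD1 and HSPE1 share a single match here too. Heat shock element letters were in a window of HSPD1 alone among the 8, against 7.74% of all windows for TTCNNGAA and 6.77% for GAANNTTC. CCAAT was in windows of CLPX and CLPB, against 34.6% of all, and the ATF4 type element TGATGNAA was in none of the 8, against 3.62% of all.

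After JG342, LONP1 was 2.13 times its DMSO level, HSPE1 was at 0.735 of it, and the other 8 genes did not pass the test in either direction. In log2(TPM + 1), LONP1 rose by 1.09 ± 0.11 (SE) and HSPE1 fell by 0.45 ± 0.12. So 2 of the 10 genes were called at a limma adjusted p under 0.05, 1 higher and 1 lower, where 18.4% of the 12042 genes tested were called, 10.8% higher and 7.62% lower. A count of 2 in 10 is near that background. The same 2 genes were called with the replicate number as a block, where 34.9% of all genes tested were called, and with the block and median scaling, where 33.1% were. The median log2 fold change of the 10 was −0.06, beside 0.03 over all genes tested, and after scaling the libraries to equal medians these medians were −0.13 and −0.03. For 7 of the 10 the JG342 and DMSO libraries did not overlap, beside 62.1% of all genes tested.

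**Figure D2:**
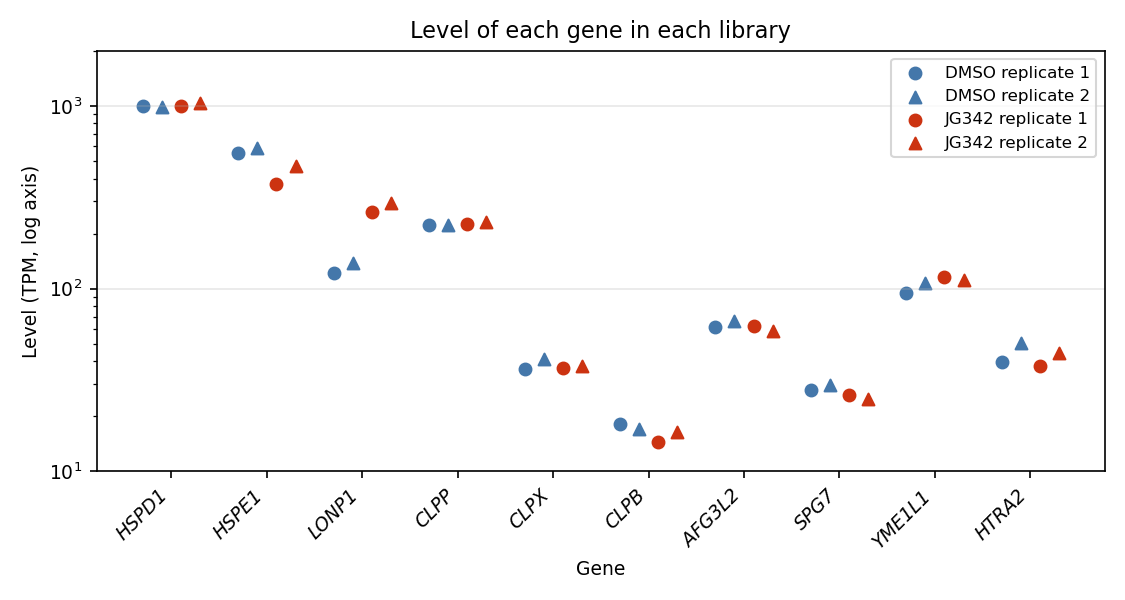
Level of each of the 10 genes in TPM (log axis) in the 2 DMSO libraries (blue) and the 2 JG342 libraries (red); each point is 1 library. LONP1 lies at 122.08 and 137.55 TPM with DMSO and at 260.85 and 293.26 TPM with JG342, HSPE1 is lower in both JG342 libraries, and the other genes stay close to their DMSO levels.

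Of the chaperonin genes, that of the lid fell and that of the barrel did not pass the test. HSPD1, the HSP60 subunit that encloses folding proteins (NM_002156), was at 993.7 and 981.17 TPM in DMSO replicates 1 and 2 and at 999.15 and 1037 TPM in JG342 replicates 1 and 2. Both JG342 libraries were marginally above both DMSO libraries. Its log2 fold change was 0.04 ± 0.09 (SE), with a 95% interval from −0.15 to 0.24 (limma adjusted p 0.767), and turned to −0.025 after median scaling. HSPD1 was the most abundant of the 10 and ranked 130th to 139th among the 16057 genes in every library.

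HSPE1, the HSP10 lid of the barrel (NM_002157), was at 554.42 and 588.36 TPM with DMSO and at 372.08 and 467.44 TPM with JG342. Both JG342 libraries were below both DMSO libraries, and the JG342 libraries differed from each other more than the DMSO libraries did. The mean went from 571.39 ± 23.999 TPM (SD, n = 2) to 419.76 ± 67.43 TPM, 0.735 of the DMSO level (limma adjusted p 0.0293). The fall was 0.57 in the pair numbered 1 and 0.33 in the pair numbered 2, on the log2 scale.

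The HSPE1 call held in 7 of 13 alternatives. It was lost without DMSO replicate 1 (limma adjusted p 0.0911), without DMSO replicate 2 (0.168) and without JG342 replicate 1 (0.129), and in the last case the fall shrank to 0.29. It was also lost with all low genes included (0.114), without a mean-variance trend (0.0920) and after quantile normalization (0.0536).

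The HSPD1 to HSPE1 ratio of TPM was 1.79 and 1.67 with DMSO, against 2.69 and 2.22 with JG342. All JG342 ratios were above all DMSO ratios, which follows from the levels of the 2 genes given above, with a log2 difference of 0.50. The exact permutation p was 0.333 (two-sided, n = 2 against 2), which is the smallest this design allows. Summed over both subunits, the chaperonin stood at 1548 and 1570 TPM with DMSO and at 1371 and 1504 TPM with JG342.

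Both genes have near-identical copies, so their values are uncertain to the extent that the authors' counting could split reads. The HSPD1 transcript matched the pseudogenes HSPD1P1 and HSPD1P4 at 97.4% and 96.4% identity over 70.1% and 69.4% of its length. The HSPE1 transcript had 7 matches at 95% identity or more, each over at most 32.5% of its length, including the readthrough gene HSPE1-MOB4 at 100% identity over 20.3%. In GENCODE release 29 the exons of the head-to-head neighbours also overlap on opposite strands, by 281 bases or 14.2% of all annotated HSPE1 exon bases. Whether the library kit or the counting kept strand is not given in the sources used here, so reads from that overlap cannot be told apart.

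LONP1, the Lon protease of the matrix (NM_001276479), which degrades oxidised and misfolded proteins, was at 122.08 and 137.55 TPM with DMSO and at 260.85 and 293.26 TPM with JG342. The groups were far apart: the lower JG342 library was nearly double the higher DMSO library. The mean went from 130 ± 10.9 TPM (SD, n = 2) to 277 ± 22.9 TPM, a ratio of 2.13 (limma adjusted p 0.000414; 95% interval of the log2 fold change 0.85 to 1.33). The rise was 1.09 in each same-numbered pair.

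LONP1 was called higher in all 13 alternatives, with log2 fold changes between 1.00 and 1.17 when 1 library was left out. Its rank by level moved from 1266th and 1177th to 528th and 449th among the 16057 genes. By absolute log2 fold change it was the 258th of the 12042 genes tested. Of the summed TPM of the 8 genes outside the chaperonin, LONP1 made up 19.6% and 20.5% with DMSO and 33.5% and 35.9% with JG342. No near-identical copy was found for it, and its exons overlap those of RPL36 on the opposite strand over 0.846% of their bases.

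CLPP and CLPX form the other ATP-driven protease of the matrix. CLPP, the proteolytic chamber (NM_006012), was at 222.32 and 221.48 TPM with DMSO and at 225.15 and 231.23 TPM with JG342. All 4 libraries lay within a narrow band, and the log2 fold change of 0.04 ± 0.09 (SE; 95% interval −0.16 to 0.24, limma adjusted p 0.791) turned to −0.028 after median scaling. CLPX, the unfoldase that feeds the chamber (NM_006660), was at 36.27 and 41.39 TPM with DMSO and at 36.9 and 37.52 TPM with JG342. Its groups overlapped, with a log2 fold change of −0.06 ± 0.12 (SE; 95% interval −0.32 to 0.20). The chamber gene was several times as abundant as its unfoldase, with a CLPP to CLPX ratio of TPM of 6.13 and 5.35 with DMSO and 6.10 and 6.16 with JG342.

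The LONP1 to CLPP ratio of TPM compares the 2 matrix proteases directly. It was 0.549 and 0.621 with DMSO and 1.16 and 1.27 with JG342, so that the order of the 2 genes was inverted in both JG342 libraries. The log2 difference of the ratio was 1.05 (exact permutation p 0.333, two-sided, n = 2 against 2, again the smallest possible). The interval of LONP1, 0.85 to 1.33, and that of CLPP, −0.16 to 0.24, did not overlap.

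None of the inner-membrane protease genes passed the test in either direction. AFG3L2 (NM_006796), which forms the matrix-facing protease by itself or with SPG7, was at 61.42 and 66.16 TPM with DMSO and at 62.45 and 58.86 TPM with JG342. SPG7, or paraplegin (NM_003119), was at 27.95 and 29.67 TPM with DMSO and at 26.21 and 24.89 TPM with JG342. AFG3L2 overlapped between treatments, and both SPG7 values with JG342 were below both with DMSO. Their log2 fold changes were −0.07 (95% interval −0.31 to 0.16) and −0.17 (−0.43 to 0.10), with limma adjusted p of 0.673 and 0.349. The AFG3L2 to SPG7 ratio of TPM was 2.1975 and 2.2299 with DMSO and 2.3827 and 2.3648 with JG342. These ratios did not overlap between treatments either, with a log2 difference of 0.10.

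YME1L1 (NM_001253866), the protease of the same family that faces the intermembrane space, was at 94.94 and 106.71 TPM with DMSO and at 115.26 and 111.47 TPM with JG342. Both JG342 libraries were above both DMSO libraries, yet the log2 fold change of 0.17 (95% interval −0.06 to 0.40) was not called (limma adjusted p 0.276). The exons of AFG3L2 overlap those of TUBB6 on the opposite strand over 12.6% of their bases, and those of YME1L1 overlap MASTL over 6.04%.

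The intermembrane-space genes were among the lowest of the 10. CLPB (NM_001258392), a disaggregase, was at 18.04 and 17.11 TPM with DMSO and at 14.47 and 16.5 TPM with JG342. HTRA2 (NM_001321727), a serine protease that can also bind inhibitor of apoptosis proteins once released to the cytosol, was at 39.8 and 50.28 TPM with DMSO and at 37.45 and 44.22 TPM with JG342. CLPB was lower in both JG342 libraries, whereas HTRA2 was higher in the libraries numbered 2 of both treatments and its groups overlapped. Their log2 fold changes were −0.17 (95% interval −0.47 to 0.13) and −0.13 (−0.45 to 0.19), with limma adjusted p of 0.390 and 0.548. HTRA2 exons overlap those of LOXL3 and AUP1 on the opposite strand over 20.8% and 16.1% of their bases. AUP1 was at 249 and 235 TPM with DMSO and at 203 and 201 TPM with JG342, and its part in the HTRA2 values was not tested.

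In order of mean level with DMSO, HSPD1 and HSPE1 led, followed by CLPP, LONP1, YME1L1, AFG3L2, HTRA2, CLPX, SPG7 and CLPB. HTRA2 and CLPX did not differ beyond their spread, at 45.04 ± 7.41 and 38.8 ± 3.62 TPM (SD, n = 2). With JG342, LONP1 stood next after HSPE1, in place of CLPP, at 277 ± 22.9 against 228 ± 4.30 TPM, and HTRA2 and CLPX again lay within their spread. The sum over the 10 genes was 2171 and 2240 TPM with DMSO and 2150 and 2322 TPM with JG342, so the totals overlapped.

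**Figure D3:**
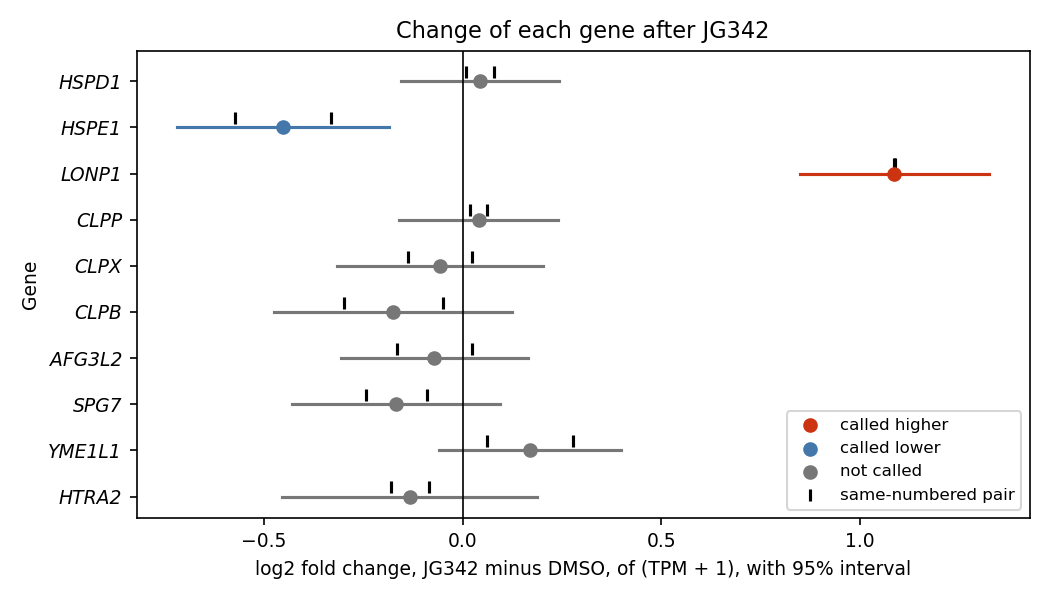
Log2 fold change of (TPM + 1), JG342 minus DMSO, for each of the 10 genes, with the limma 95% interval (lines) and the change in each same-numbered pair (ticks). The interval of LONP1 (0.85 to 1.33) lies wholly above 0, that of HSPE1 lies wholly below 0, and the other 8 intervals include 0.

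**Figure D4:**
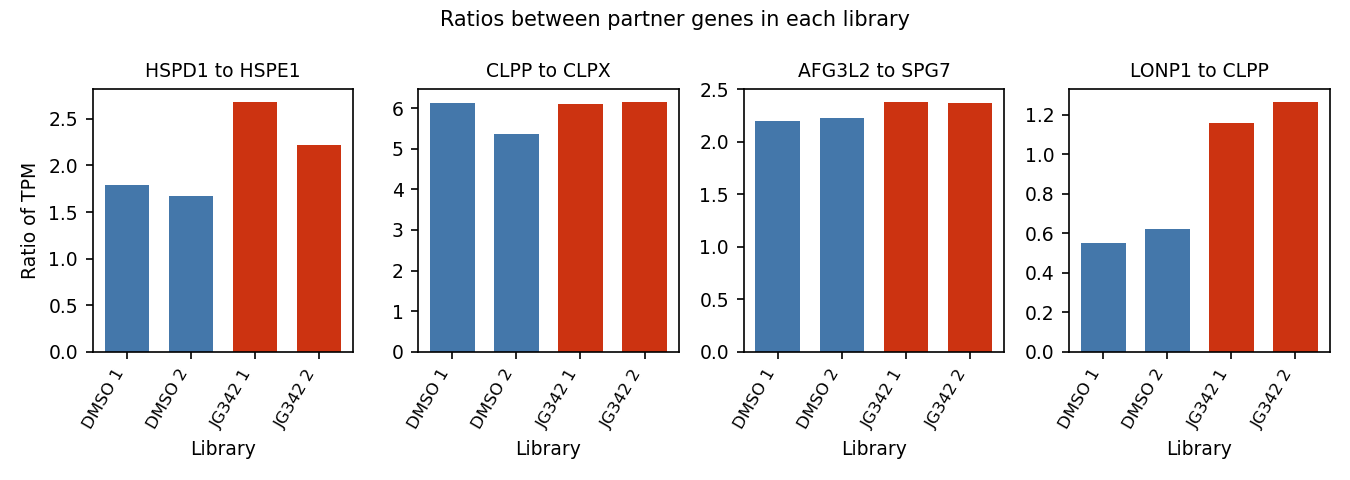
Ratio of TPM between partner genes in each library, with DMSO in blue and JG342 in red; each bar is 1 library and bars start at 0. The HSPD1 to HSPE1 ratio is 1.79 and 1.67 with DMSO and 2.69 and 2.22 with JG342, and LONP1 to CLPP passes from below 1 to above 1, while CLPP to CLPX overlaps between treatments.

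Of 13 other chaperones and membrane scaffolds of mitochondria, 1 rose, 1 fell and 11 did not pass the test, with a median log2 fold change of −0.04. These 2 calls are near the background of 18.4% of all genes tested. With the replicate number as a block 5 passed, beside 34.9% of all genes, and 4 with the block and median scaling, beside 33.1%. HSPA9, the mitochondrial HSP70 that hands proteins to the chaperonin, was at 322.91 and 327.35 TPM with DMSO and at 490.82 and 510.69 TPM with JG342. Its groups did not overlap, and it rose by 0.62 ± 0.09 (SE; limma adjusted p 0.00259). It was called in all 13 alternatives.

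PHB, a prohibitin of the inner-membrane scaffold that surrounds the AFG3L2 proteases, was at 247.36 and 267.37 TPM with DMSO and at 178.03 and 198.58 TPM with JG342. It fell by 0.45 on the log2 scale (limma adjusted p 0.0156), a call kept in 8 of 13 alternatives and in 1 of the 4 that leave out a library. Its partner PHB2 overlapped between treatments. TRAP1, the HSP90 of mitochondria, was at 164.65 and 160.07 TPM with DMSO and at 133.67 and 137.43 TPM with JG342. Its log2 fold change of −0.26 was not called (limma adjusted p 0.0806). TRAP1 was called in 3 of 13 alternatives: with the replicate block (limma adjusted p 0.0127), with median scaling (0.0495) and with both (0.0162).

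None of the 13 other mitochondrial proteases and peptidases passed the limma test, beside 18.4% of all genes. At an unadjusted p under 0.05 there were 3 of them. The 18.4% is the share at the adjusted p. More of all genes met the unadjusted level, and that share was not counted, so the 3 cannot be set beside the 18.4%. With the replicate block 3 passed, and 3 with the block and median scaling, beside 34.9% and 33.1% of all genes. Their median log2 fold change was 0.05, and −0.02 after median scaling. OMA1, the stress-activated protease that acts beside YME1L1 on the fusion factor OPA1, was at 29.2 and 32.5 TPM with DMSO and at 35.99 and 36.3 TPM with JG342 (limma adjusted p 0.206).

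Of 16 known substrates and partners of the 10 genes, 3 rose, 4 fell and 9 did not pass, with a median log2 fold change of −0.13, where 18.4% of all genes were called. With the replicate block 11 passed, and 13 with the block and median scaling, where 34.9% and 33.1% of all genes did. HAX1, a partner of HTRA2 and CLPB, was at 259.26 and 325.5 TPM with DMSO and at 467.13 and 546.53 TPM with JG342. It had the largest rise of the list, by 0.80 ± 0.13 (SE; limma adjusted p 0.00460), and was called in 12 of 13 alternatives.

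BIRC2, an inhibitor of apoptosis of the family that HTRA2 binds, and PINK1, the kinase that marks damaged mitochondria, rose by 0.50 and 0.47 (limma adjusted p 0.0145 and 0.0297). TFAM, which packages mitochondrial DNA and is a LONP1 substrate, was at 35.52 and 36.04 TPM with DMSO and at 26.3 and 24.4 TPM with JG342, and fell by 0.48 (limma adjusted p 0.0202). BIRC5, or survivin, a gene also tied to cell division, fell by 0.65 (limma adjusted p 0.00828). PRELID1, a lipid carrier cleaved by YME1L1, and MRPL32, the ribosomal protein matured by AFG3L2, fell by 0.36 and 0.35 (limma adjusted p 0.0260 and 0.0365). When a single library was left out, TFAM and PRELID1 passed in 1 of 4 cases, BIRC2 in 2 and BIRC5 in 3. PINK1 and MRPL32 passed in 0 of the 4.

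Among 9 regulators linked to mitochondrial stress, 3 rose, 0 fell and 6 did not pass the limma test, where 18.4% of all genes were called. SSBP1, a single-stranded DNA binding protein of mitochondria, had a log2 fold change of −0.26 (limma adjusted p 0.0659). It passed in 3 of 13 alternatives: with the replicate block (limma adjusted p 0.00342), with median scaling (0.0456) and with both (0.0181). In each of these fits 3 genes of the list were called higher and 1 lower. Of all genes tested, 34.9% were called with the block, 2166 of 12042 with median scaling and 33.1% with both. ATF4, a translationally controlled stress factor, was at 420.29 and 787.89 TPM with DMSO and at 1269 and 1476 TPM with JG342. The rise was 1.25 ± 0.24 (SE; limma adjusted p 0.00900), and it did not pass with all low genes included (0.0917) or in the robust fit (0.117). DDIT3, also called CHOP, and CEBPB, its dimer partner, rose by 3.25 ± 0.25 and 2.72 ± 0.23 (limma adjusted p 0.000141 and 0.000223). DMSO replicate 2 was the higher DMSO library for ATF4, DDIT3 and CEBPB, and also for LONP1 and HSPE1. Without it ATF4, DDIT3 and CEBPB still passed, LONP1 rose by 1.17 (limma adjusted p 0.00189), and HSPE1 did not pass, as given above. ATF5, another factor of this group, overlapped between treatments, and HSF1, which drives heat shock genes, was at 97.6 and 96.6 TPM with DMSO and at 98.8 and 110 TPM with JG342 (limma adjusted p 0.507).

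**Figure D5:**
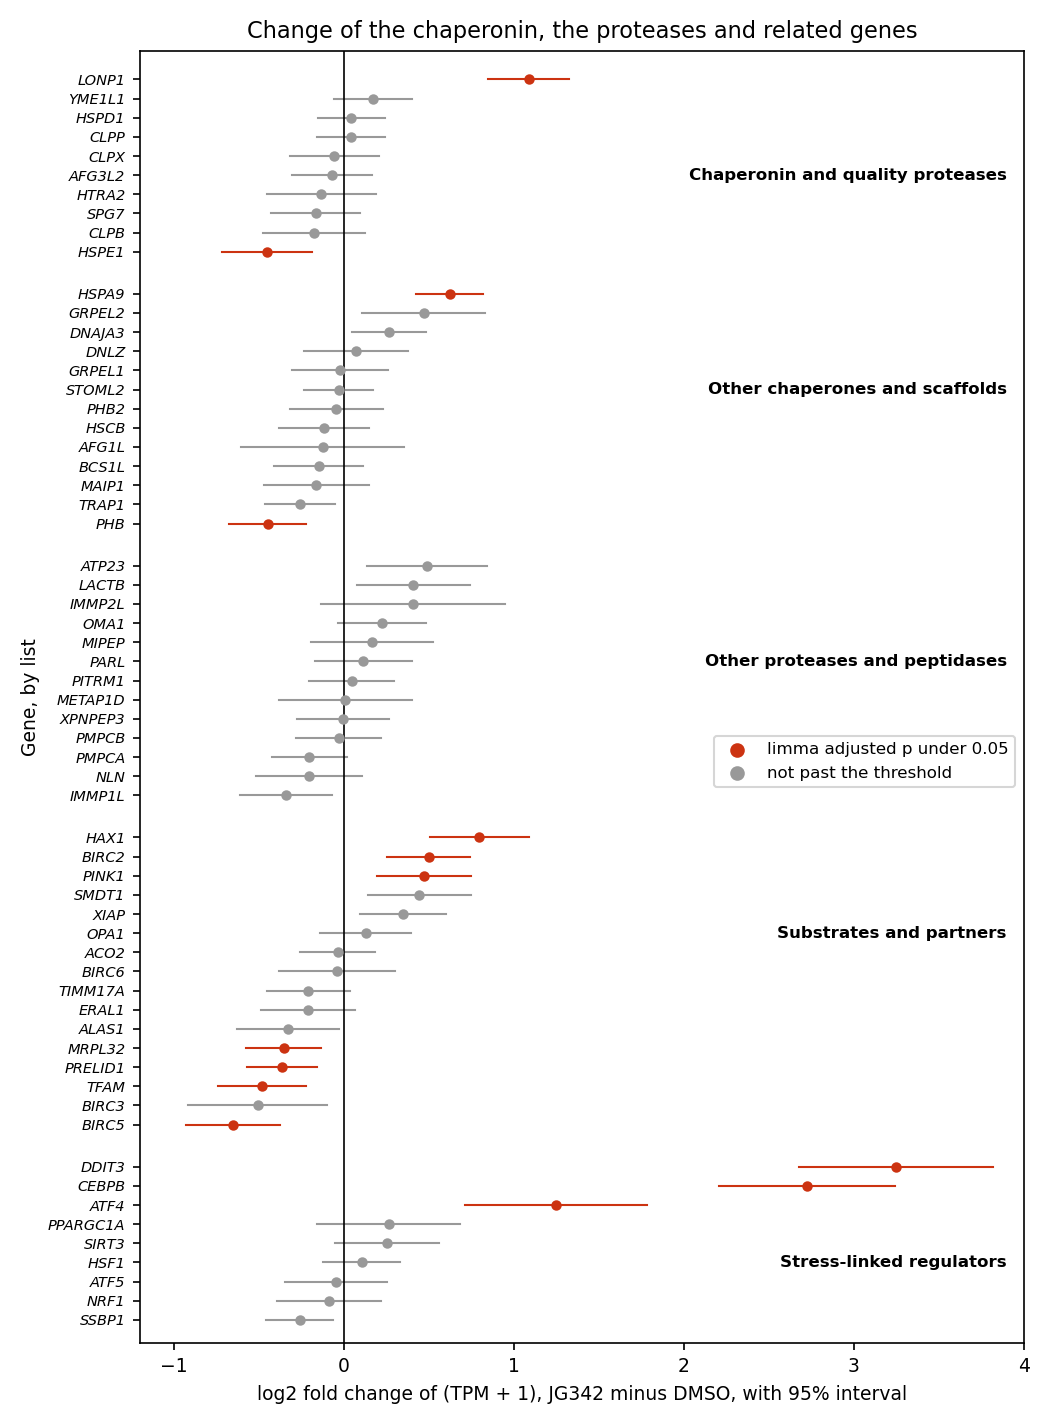
Log2 fold change of (TPM + 1), JG342 minus DMSO, with the limma 95% interval, for every tested gene of 5 lists; red marks a limma adjusted p under 0.05. LONP1 and HSPE1 are the red genes among the 10, HSPA9 and PHB among the other chaperones and scaffolds, and DDIT3 has the largest change shown, at 3.25.

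The genes whose pattern over the 4 libraries lay closest to those of the called genes were found by the root mean square distance between log2(TPM + 1) profiles, each centred on its own mean. For LONP1 these were TNKS1BP1 (0.0259), ZNF717 (0.0299) and AIG1 (0.0378). AIG1, for instance, was at 25.78 and 29.05 TPM with DMSO and at 59.65 and 64.48 TPM with JG342. For HSPE1 they were ZNF823 (0.0217), DNAJC2 (0.0224) and C19orf44 (0.0248). DNAJC2 was at 67.21 and 72.32 TPM with DMSO and at 46.33 and 56.02 TPM with JG342. These are distances over 4 libraries, which many genes can share, and they carry no test.

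Plasma cell markers also moved between treatments: of 9, 2 rose (IRF4 and PRDM1) and 2 fell (JCHAIN and TNFRSF17) at a limma adjusted p under 0.05. That fit called 18.4% of all genes tested. With the replicate block 6 passed, beside 34.9% of all genes tested, the added genes being SDC1 (limma adjusted p 0.00764) and SLAMF7 (0.000422). After median scaling IRF4 and JCHAIN alone passed, beside 2166 of the 12042 genes tested. When a single library was left out, IRF4 and JCHAIN passed in 4 of 4 cases, TNFRSF17 in 2 and PRDM1 in 0. Their summed level was 14570 to 14836 TPM with DMSO and 10029 to 10667 TPM with JG342, most of it JCHAIN, which went from 9907 and 10383 to 5732 and 5431 TPM. Of 10 listed markers of other blood and stromal cells, 8 were found in the table, and these summed to 51.2 to 61.7 TPM with DMSO and 54.4 to 62.7 TPM with JG342. Of these 8, 3 were abundant enough to test and 0 passed the limma test. At an unadjusted p under 0.05 there were 2. The share of all genes tested at that level was not counted and is larger than the 18.4% at the adjusted p. With the replicate block HBB was called higher (limma adjusted p 0.00972) and CD3E lower (0.00753), and over all alternatives HBB passed in 4 of 13 and CD3E in 2 of 13. The part of either set of markers in the results above was not tested.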

How the data were processed

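RNA sequencing of 4 MM.1S libraries was analysed, 2 with DMSO and 2 with JG342, grouped by the samples' titles. The authors deposited 1 table with 1 value per gene and library, taken to be TPM because the libraries have nearly equal totals, 994463 to 994718. HISAT2 2.0.4, Bowtie2 2.2.5 and RSEM 1.2.12 are named per the submitters' processing notes, without their roles; genome build, annotation and strand are not given in the sources used here. TPM has no recorded depth, so reads were estimated from the most frequent low value of TPM times transcript length (GENCODE 29 transcripts of at least 1500 nt) and entered no test.

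Values were transformed to log2(TPM + 1), which understates changes of low genes. Genes averaging 1 TPM or more (12042, including all 10 described) were fitted with limma 3.58.1 in R 4.3.3 (eBayes with trend, treatment only). P-values are two-sided and Benjamini-Hochberg adjusted over all fitted genes, with a threshold of 0.05. The test was checked on simulated data with independent libraries and the same spread for every gene. That check does not cover libraries paired by replicate number or a spread that varies with level. Replicate numbers were taken to pair the samples, since a prefix in the sample descriptions is common to each number. The meaning of that prefix is not stated. Deviations of same-numbered libraries correlated across genes with r 0.275 and rho 0.304. A fit with this block is an alternative. Its prior degrees of freedom were infinite, so that each variance came from expression level alone; with median scaling added they were 7.49.

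Copies were searched with BLAST 2.17.0 (at least 95% identity over at least 20% of the transcript). The genes and lists were chosen with earlier results of these data known. Named genes were all 10, HSPA9, TRAP1, those called in each list and the 3 nearest profiles of each called gene; OMA1, PHB2, ATF5, HSF1, AUP1, SDC1, MZB1, SLAMF7, SSBP1, PAX5, LYZ, CD14, ITGAM, HBB and CD3E were added after their values were seen.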

Additional observations from a re-analysis of the deposited data

How the results depend on the processing

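The count of genes past the threshold was 2221 and moved to 4207 with the replicate block, 3985 with the block and median scaling, and 828 with no filter on low values; it ran from 767 (without DMSO replicate 2) to 1825 when 1 library was left out, with 1046 without DMSO replicate 1. Median scaling, quantile normalization, a pseudocount of 0.1, a filter at a mean of 5 TPM, no mean-variance trend and a robust fit kept it within 1.5 times, but higher genes made up 58.7% of calls in the reported fit, 44.6% after median scaling, 42.0% with the block in addition and between 58.1% and 75.0% when 1 library was left out.

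Of the 10 genes 2 passed; the count was 1, LONP1, after quantile normalization, with no filter on low values and without a mean-variance trend, and ran from 1 to 2 when 1 library was left out. The replicate block, with or without median scaling, changed no call among the 10: the limma adjusted p with the block and median scaling was 8.77e-05 for LONP1 and 0.00549 for HSPE1. CLPP turned to −0.028 and HSPD1 to −0.025 under median scaling, with and without the block. With 1 library left out, CLPX ran from −0.15 to 0.036 and HTRA2 from −0.30 to 0.031, both highest without DMSO replicate 2. None of these 4 genes passed in any setting. The log2 difference of the HSPD1 to HSPE1 ratio ran from 0.36 to 0.64 when 1 library was left out, and was 0.50 as a ratio of TPM + 1. With 2 libraries a group, the 95% intervals of the 8 genes not called were 0.40 to 0.64 wide on the log2 scale, which limits what could be detected.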
